A study of Mus musculus with 24 samples.

Results

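The EGF receptor family and its ligands were followed here across 6 groups of mouse liver. The set holds 10 genes, picked by symbol from the 53467 genes of the count table: the receptors Egfr, Erbb2 and Erbb3, the ligands Areg, Ereg, Hbegf, Tgfa, Btc and Egf, and the receptor inhibitor Errfi1. All 10 were among the 19381 genes that passed the filter on low counts, a level of 0.5 CPM (counts scaled to the size of the library) or more in 2 or more livers. Ereg, Egf and Erbb2 passed it on no more than 5 counts in any liver.

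RNA was sequenced from the bulk livers of 24 male C57BL/6JAusb mice, 1 library per mouse, with 3 to 5 mice per group. Mice of 14 to 15 weeks received plasmids by hydrodynamic tail vein injection (HTVI), which delivers DNA mainly to a subset of hepatocytes, so that a library mixes cells with and without plasmid. Every mouse, controls included, received 0.8 µg of the Sleeping Beauty (SB) transposase plasmid. The dual plasmid groups also received 10 µg each of myr-AKT (a membrane-anchored, active AKT driving PI3K-type signalling) and either c-Met (the hepatocyte growth factor receptor) or NRas (an activated form, expressed from the CAGGS promoter). From 8 to 10 days later, mice received 10 or 11 intraperitoneal injections over 5 to 6 weeks of saline or of thioacetamide (TAA, a hepatotoxin activated within hepatocytes), 100 mg/kg first and 200 mg/kg after. The groups were SB + TAA (4 livers), SB/AKT/c-Met + saline (3), SB/AKT/NRas + saline (4), SB/AKT/c-Met + TAA (4), SB/AKT/NRas + TAA (5) and the control SB + saline (4).

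EGF family ligands are made as membrane-anchored precursors, and proteases of the ADAM family cut them free to act on the same or neighbouring cells. Ligand binding lets the receptors pair and phosphorylate each other, and the signal runs through RAS and the MAP kinases ERK1 and ERK2 and through PI3K and AKT, so that the plasmids used here act downstream of, or parallel to, these receptors. Erbb2 binds no known ligand and Erbb3 has weak kinase activity, and each signals in pairs. In the liver Egfr is abundant in hepatocytes and its ligands take part in regeneration, while Errfi1 (Mig6) binds the EGFR kinase and switches it off.

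Ereg, Areg and Btc lie together on chromosome 5 (GRCm38): Ereg at chr5:91074622-91093646, Areg at chr5:91139599-91148432 and Btc, on the opposite strand, at chr5:91357261-91402994. No annotated gene lies in the 45952 bases between Ereg and Areg, and 2 lie in the 208828 bases between Areg and Btc. Tgfa lies at chr6:86195223-86275719, Egf at chr3:129677565-129755316, Egfr at chr11:16752203-16918158, Erbb2 at chr11:98412470-98437716, Erbb3 at chr10:128567523-128589652 and Errfi1 at chr4:150853919-150868892.

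Promoter windows of 300 bases, with 250 before and 50 after the start site, were taken from RefSeq (GRCm38.p6), which matched 7 of the 10 genes. The windows of Areg, Tgfa and Btc are shown because these ligands were called in the comparisons described next, and 1 of the 2 windows of Errfi1 because it holds the same pair of motifs as that of Areg. Capitals mark, on either strand, a cyclic AMP response element (TGACGTCA, a site for CREB and ATF factors), a TATA box (TATAAA) and a GC box (GGGCGG, a site for SP factors). The AP-1 motif TGANTCA was also searched, on both strands, and no window of the 7 genes held it.
Areg, chr5:91139349-91139648, plus strand: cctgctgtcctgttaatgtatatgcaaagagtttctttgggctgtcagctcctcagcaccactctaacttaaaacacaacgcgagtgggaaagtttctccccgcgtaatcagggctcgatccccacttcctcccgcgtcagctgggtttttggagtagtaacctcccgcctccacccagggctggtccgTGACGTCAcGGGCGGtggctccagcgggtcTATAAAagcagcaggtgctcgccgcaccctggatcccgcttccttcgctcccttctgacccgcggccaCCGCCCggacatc
Tgfa, chr6:86194972-86195271, plus strand: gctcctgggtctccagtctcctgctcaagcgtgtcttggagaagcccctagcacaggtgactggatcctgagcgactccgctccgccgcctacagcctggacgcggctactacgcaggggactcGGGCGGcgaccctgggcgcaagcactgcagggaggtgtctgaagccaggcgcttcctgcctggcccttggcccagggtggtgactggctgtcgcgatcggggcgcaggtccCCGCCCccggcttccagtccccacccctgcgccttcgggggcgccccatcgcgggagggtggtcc
Btc, chr5:91402945-91403244, minus strand: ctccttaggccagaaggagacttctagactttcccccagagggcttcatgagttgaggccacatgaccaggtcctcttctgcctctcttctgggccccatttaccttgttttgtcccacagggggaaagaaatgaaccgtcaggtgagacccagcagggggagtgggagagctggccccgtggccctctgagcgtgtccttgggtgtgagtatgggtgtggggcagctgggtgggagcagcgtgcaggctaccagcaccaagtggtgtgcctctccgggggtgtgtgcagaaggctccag
Errfi1, chr4:150854820-150855119, plus strand: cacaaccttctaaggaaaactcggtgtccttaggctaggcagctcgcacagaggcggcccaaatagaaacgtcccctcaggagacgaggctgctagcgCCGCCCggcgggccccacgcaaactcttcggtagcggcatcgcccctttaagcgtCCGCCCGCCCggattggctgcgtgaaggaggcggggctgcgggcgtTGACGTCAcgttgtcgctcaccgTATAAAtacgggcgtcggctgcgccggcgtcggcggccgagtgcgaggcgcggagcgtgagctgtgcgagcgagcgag

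Areg carried the cyclic AMP response element 61 bases and the TATA box 31 bases before its start, and Errfi1 carried them 51 and 28 bases before its start. Of 32851 mouse promoter windows of this length, 1.79% held the cyclic AMP response element, 13.6% the TATA box, 35.7% the GC box and 7.81% the AP-1 motif. GC boxes stood at 2 places each in Areg and Tgfa and at 3 in Errfi1, 2 of which overlap. The window of Btc held none of the 4 motifs. These matches describe letters, and binding was not measured.

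Libraries held 2152510 to 3399247 gene counts (median 2832909). Hepatocyte markers gave the largest summed level of any marker list in all groups (51231 to 114120 CPM over the livers). The library of SB + TAA replicate 4 stood apart: 8 skeletal muscle genes summed to 5956 CPM there, against 3.85 to 25.3 CPM in the other 23 livers, and its values are named where they matter. The human NRAS transcript of the plasmid had 28 to 768 counts in the 9 livers given NRas and at most 2 counts in the other 15. The human MET transcript had 2 to 31 counts in the 7 livers given c-Met and 0 in the other 17. SB + saline libraries held 15478 to 16478 detected genes. Libraries with TAA held 16838 to 19026, those of SB/AKT/c-Met + saline 16279 to 17502 and those of SB/AKT/NRas + saline 16403 to 18411. The share of records assigned to genes was 15.6 to 16.7% (SB + saline), 19.4 to 23.1% (TAA groups), 15.9 to 20.6% (c-Met + saline) and 13.8 to 23.9% (NRas + saline). TMM scaling (a library factor set by the bulk of genes) was 0.846 to 1.19 in the other 20 livers and 0.772 to 0.817 in SB + saline livers. Levels below are CPM on that scale, and a gene called changed had an adjusted p under 0.05 in edgeR's quasi-likelihood test, corrected by Benjamini-Hochberg over all 19381 genes.

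Across the 6 groups, the ligands Areg (adjusted p = 0.00935) and Tgfa (adjusted p = 0.0181) differed by the F test of any difference. These are 2 of 10 genes, against 9.01% of all genes tested. The receptors and Errfi1 did not pass (adjusted p = 0.212 for Egfr, 0.544 for Erbb3, 0.851 for Erbb2 and 0.25 for Errfi1), nor did Hbegf (0.0847), Btc (0.0935), Egf (0.34) or Ereg (0.98).

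**Figure D1:**
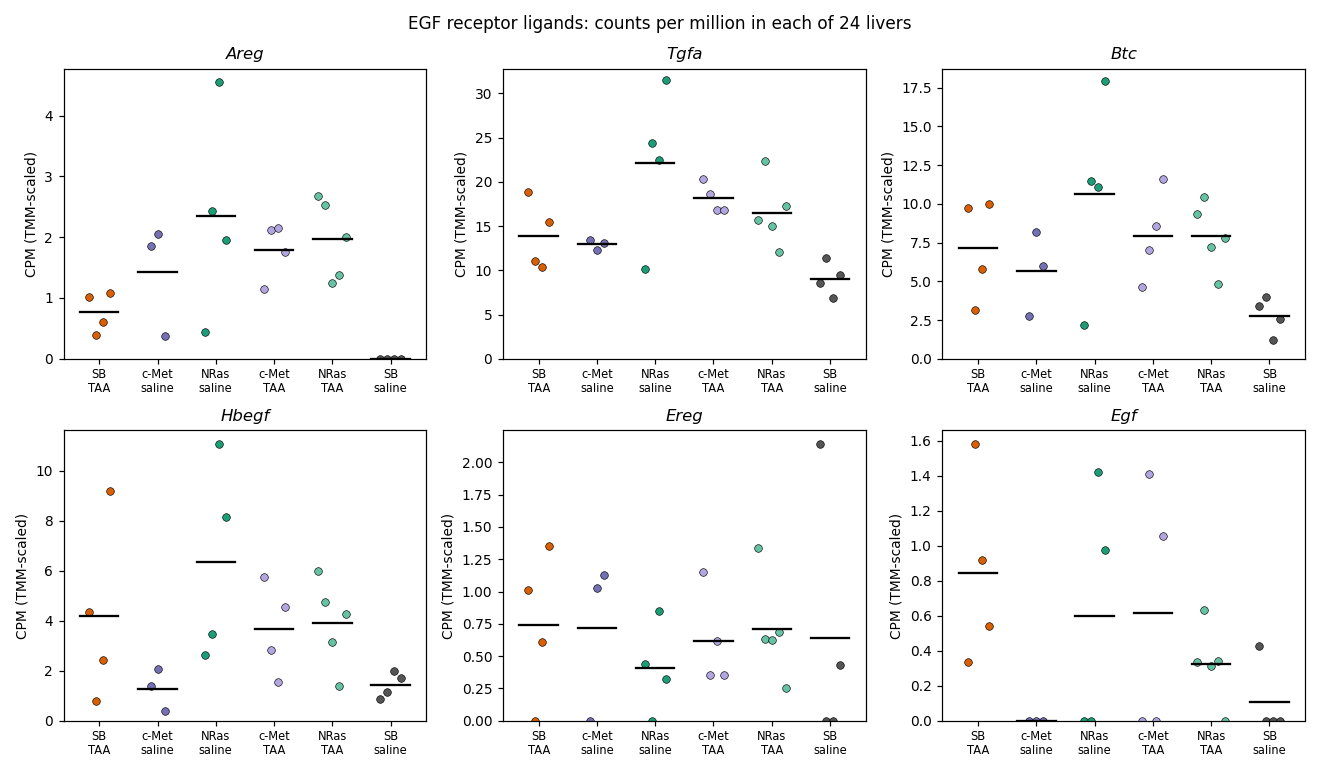
Levels of the 6 ligands (vertical axes, TMM-scaled CPM from 0) in each of the 24 livers by group (horizontal axes; on them c-Met means SB/AKT/c-Met, and NRas means SB/AKT/NRas); points are livers in replicate order from left to right and bars are group means. Areg is at 0 in all 4 SB + saline livers, and SB/AKT/NRas + saline replicate 1, the leftmost of its group, is within the SB + saline range for Tgfa and Btc.

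Areg (amphiregulin, a ligand of EGFR alone) had the smallest p of the 10 genes. No count of Areg was seen in any of the 4 SB + saline livers, and every one of the other 20 livers had at least 1. Areg had 0.44, 2.44, 4.55 and 1.95 CPM in SB/AKT/NRas + saline livers and 1.85, 2.05 and 0.375 CPM in SB/AKT/c-Met + saline livers. With TAA it had 2.67, 2.52, 1.25, 1.38 and 2.00 CPM in SB/AKT/NRas livers, 1.15, 2.11, 2.15 and 1.76 CPM in SB/AKT/c-Met livers and 1.01, 0.395, 0.612 and 1.08 CPM in SB livers. The level was low everywhere, with at most 16 counts in a liver, so single values rest on few molecules. The zeros of SB + saline came from libraries with 15478 to 16478 detected genes, and the part of that in them was not tested.

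Since the SB + saline livers were at 0, folds of Areg are lower bounds against 3 counts over that group, or 0.336 CPM. Areg was at least 7.60-fold higher in SB/AKT/NRas + saline livers (30 counts against 0, adjusted p = 0.00175). It was at least 5.86-fold higher in SB/AKT/NRas + TAA livers (32 counts, adjusted p = 0.002) and at least 5.41-fold higher in SB/AKT/c-Met + TAA livers (21 counts, adjusted p = 0.0061). In SB + TAA livers it was at least 2.38-fold higher (10 counts, adjusted p = 0.0433). In SB/AKT/c-Met + saline livers, with 11 counts, it was at least 4.22-fold higher but did not pass the test (adjusted p = 0.0527). The calls with NRas + saline, NRas + TAA and c-Met + TAA held on leaving out any liver of the groups compared, with adjusted p up to 0.0221. The SB + TAA call held only without SB + TAA replicate 2 and was lost without each of the other 7 livers (adjusted p 0.059 to 0.137), and without SB + TAA replicate 4, the muscle-bearing library, it was 0.137. The SB/AKT/c-Met + saline value passed without its replicate 3 (adjusted p = 0.0382).

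Tgfa (transforming growth factor alpha, a ligand of EGFR made by hepatocytes during regeneration) had 10.1, 24.4, 22.4 and 31.6 CPM in SB/AKT/NRas + saline livers, against 8.56, 11.4, 6.82 and 9.42 CPM in SB + saline livers. Replicate 1 of the NRas group overlapped the controls, and the other 3 lay above all of them. The log2 fold change was 1.32 ± 0.27 (SE, adjusted p = 0.00279, 2.49-fold), and it passed without any 1 of the 8 livers. Tgfa had 20.4, 18.6, 16.9 and 16.8 CPM in SB/AKT/c-Met + TAA livers, all above the SB + saline livers, at a log2 fold change of 1.02 ± 0.27 (SE, adjusted p = 0.0283). It had 15.7, 22.4, 15.1, 12.03 and 17.3 CPM in SB/AKT/NRas + TAA livers, also all above the SB + saline livers, at 0.88 ± 0.26 (SE, adjusted p = 0.0293). Both TAA calls were close to the threshold. That with c-Met was lost without SB/AKT/c-Met + TAA replicate 1, 2 or 3 or SB + saline replicate 1, 3 or 4 (adjusted p up to 0.11), and that with NRas without SB/AKT/NRas + TAA replicate 2 or 5 or SB + saline replicate 1, 3 or 4 (up to 0.116). In SB/AKT/c-Met + saline livers Tgfa had 13.4, 12.3 and 13.1 CPM, each above the 4 SB + saline livers, and the difference did not pass the test (0.53 ± 0.30 SE, adjusted p = 0.566). In SB + TAA livers it had 18.8, 11.1, 10.4 and 15.4 CPM (0.64 ± 0.27 SE, adjusted p = 0.175).

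Btc (betacellulin, a ligand of EGFR and ERBB4) had group means in the same order as those of Tgfa, although neighbouring groups overlapped. It had 2.198, 11.5, 11.1 and 17.9 CPM in SB/AKT/NRas + saline livers, against 3.42, 3.98, 1.20 and 2.57 CPM in SB + saline livers. Replicate 1 again fell among the controls. The log2 fold change was 1.98 ± 0.48 (SE, adjusted p = 0.0106, 3.95-fold) and did not pass without SB/AKT/NRas + saline replicate 4 (adjusted p = 0.0531). In SB/AKT/NRas + TAA livers Btc had 9.34, 10.4, 7.21, 4.81 and 7.77 CPM, above every SB + saline liver, at 1.53 ± 0.48 (SE, adjusted p = 0.0403). That call was lost without SB/AKT/NRas + TAA replicate 1, 2 or 5 or any 1 of the SB + saline livers (adjusted p up to 0.148). In SB/AKT/c-Met + TAA livers, with 4.61, 7.04, 8.59 and 11.6 CPM, Btc also lay above every SB + saline liver, at 1.54 ± 0.50 (SE, adjusted p = 0.082). It had 9.75, 3.16, 5.81 and 10.0 CPM in SB + TAA livers (1.41 ± 0.50 SE, adjusted p = 0.0946) and 2.78, 8.20 and 6.00 CPM in SB/AKT/c-Met + saline livers (1.08 ± 0.55 SE, adjusted p = 0.515). Without SB + TAA replicate 2 the SB + TAA value passed (adjusted p = 0.0352).

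Hbegf (heparin-binding EGF-like growth factor, a ligand of EGFR and ERBB4, at chr18:36504929-36515805) had 2.64, 3.48, 11.1 and 8.14 CPM in SB/AKT/NRas + saline livers, against 0.856, 1.14, 2.00 and 1.71 CPM in SB + saline livers. The groups did not overlap, and the log2 fold change was 2.13 ± 0.62 (SE, adjusted p = 0.0314, 4.38-fold). The call was lost without SB/AKT/NRas + saline replicate 3 (adjusted p = 0.167) or 4 (0.0772), or any 1 of the SB + saline livers (0.0543 to 0.102). Hbegf spread widely in SB + TAA livers, at 4.37, 0.789, 2.45 and 9.20 CPM, the highest in the muscle-bearing replicate 4 (1.56 ± 0.64 SE, adjusted p = 0.16). Without that liver its log2 fold change was 0.81. It had 5.76, 2.81, 1.53 and 4.56 CPM in SB/AKT/c-Met + TAA livers, 6.01, 4.73, 3.14, 1.38 and 4.26 CPM in SB/AKT/NRas + TAA livers and 1.39, 2.05 and 0.375 CPM in SB/AKT/c-Met + saline livers, none of which passed the test.

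Ereg (epiregulin, a ligand of EGFR and ERBB4) and Egf were at the edge of detection. Ereg had 0 to 5 counts in a liver, and its highest level, 2.14 CPM, was in an SB + saline liver, although it neighbours Areg. Egf had 10 counts over the 4 SB + TAA livers against 1 over the 4 SB + saline livers, a ratio of 7.15 with a 95% exact (Clopper-Pearson) counting interval of 1.02 to 310, which covers counting error only. Egf had 0 counts in all 3 SB/AKT/c-Met + saline livers. Neither gene passed the test in any comparison.

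Set against SB + saline livers, 4 of 6 ligands rose in SB/AKT/NRas + saline livers, 3 in SB/AKT/NRas + TAA livers, 2 in SB/AKT/c-Met + TAA livers, 1 in SB + TAA livers and 0 in SB/AKT/c-Met + saline livers. Of all genes tested, 5.56%, 5.7%, 2.68%, 3.48% and 0.599% rose in these comparisons in the same order, and 2.84%, 3.55%, 1.07%, 2.51% and 0.0413% fell. In either direction, 4, 4, 2, 1 and 0 of the 10 genes passed, against 8.41%, 9.25%, 3.76%, 5.99% and 0.64% of all genes. Groups did not overlap for 3, 3, 3, 2 and 2 of the 10 genes, against 9.34%, 14%, 12.8%, 11.7% and 10.1% of all genes, so that Areg was joined by Hbegf and Errfi1 with NRas + saline, by Tgfa and Btc in each dual plasmid mixture with TAA, by Egfr with SB + TAA and by Tgfa with c-Met + saline. The median log2 fold change of the ligands was 2.06, 1.30, 1.42, 1.48 and 0.35, against 0.07, 0.07, 0.04, 0.09 and 0.02 for all genes. With a gene that one group lacked put at its bound, the ligand medians with SB + TAA and with SB/AKT/c-Met + saline were 1.33 and 0.53, and the others did not move. The 5 comparisons share the same 4 control livers. For c-Met + saline, edgeR gave 2 of the 10 genes an unadjusted p under 0.05, and 0 genes passed in limma-voom and 1 in DESeq2. By library size alone, without TMM, the median of all genes was higher by 0.38 (SB + TAA), 0.26 (c-Met + saline), 0.43 (NRas + saline), 0.37 (c-Met + TAA) and 0.39 (NRas + TAA) on the log2 scale.

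**Figure D2:**
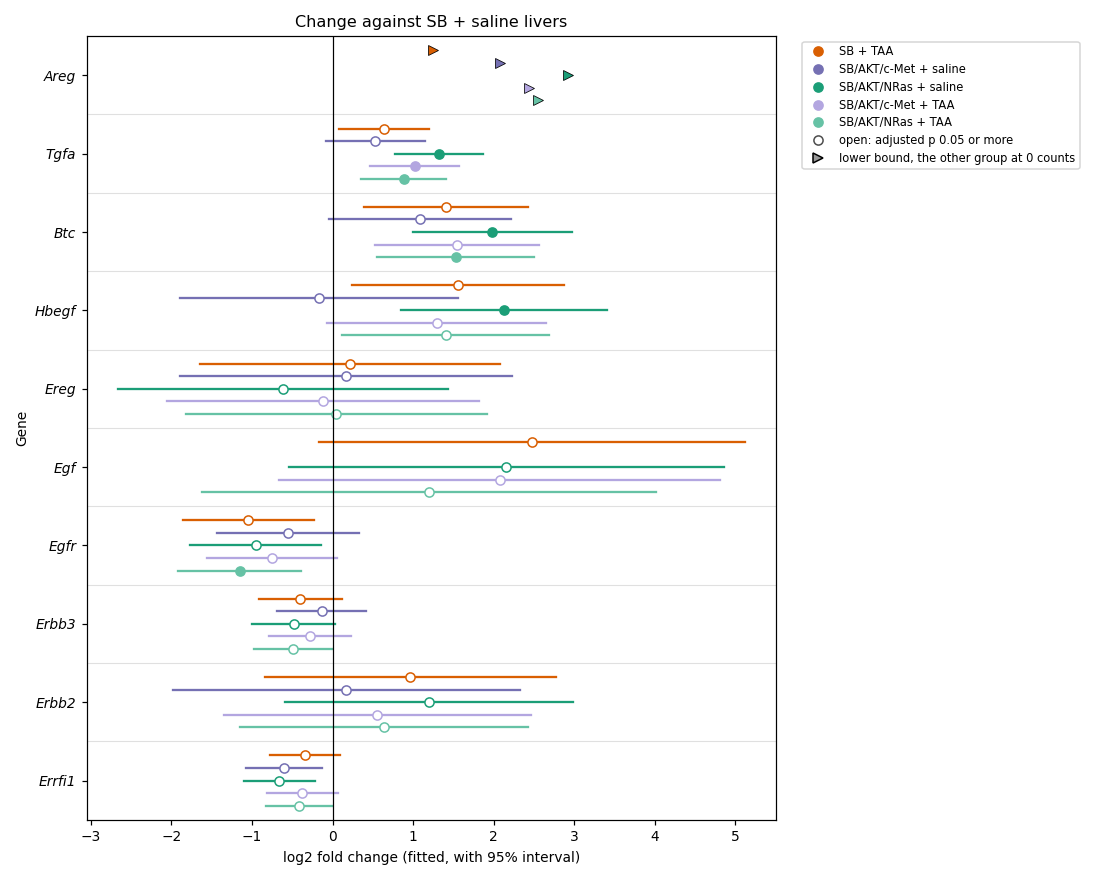
Log2 fold change (horizontal axis) of the 10 genes (vertical axis) in each of 5 groups against the same 4 SB + saline livers; circles are fitted values with 95% intervals, filled where the adjusted p is under 0.05. Triangles for Areg are lower bounds against 3 counts, and 4 of the 5 passed the test (not SB/AKT/c-Met + saline); Egf with c-Met + saline is not drawn, as both groups had at most 1 count. Tgfa and Btc estimates lie right of 0 in all 5 groups and Egfr, Erbb3 and Errfi1 estimates left of it.

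Among the receptors, Egfr (EGFR itself) was called lower in 1 group. Egfr had 88.1, 98.5, 217, 167 and 82.2 CPM in SB/AKT/NRas + TAA livers, against 332, 331, 210 and 290 CPM in SB + saline livers. Only replicate 3 overlapped the lowest control. Egfr fell there, at a log2 fold change of -1.15 ± 0.37 (SE, adjusted p = 0.0476), the only fall called among the 10 genes in these comparisons. The call was lost without SB/AKT/NRas + TAA replicate 1, 2 or 5 or SB + saline replicate 1, 2 or 4 (adjusted p up to 0.128). With library size alone it was also lost (-0.79, adjusted p = 0.0923), which leaves 3 genes called, all higher.

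Egfr had 164, 170, 158 and 71.4 CPM in SB + TAA livers, all below every SB + saline liver, without passing the test (-1.05 ± 0.40 SE, adjusted p = 0.12). Without the muscle-bearing replicate 4, its lowest liver, the log2 fold change was -0.83. Egfr had 244, 140, 39.8 and 177 CPM in SB/AKT/NRas + saline livers, a wide range within the group (-0.96 ± 0.40 SE, adjusted p = 0.14). Without replicate 1 of that group the fall passed (-1.30, adjusted p = 0.0319). With c-Met, Egfr had 187, 109, 220 and 175 CPM with TAA (adjusted p = 0.339) and 264, 81.0 and 250 CPM with saline (adjusted p = 0.693).

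Erbb3 had 13.3 to 39.8 CPM over all livers, with group means of 21.96 ± 2.16 CPM in NRas + TAA livers, 22.2 ± 6.48 CPM in NRas + saline livers and 31.1 ± 7.07 CPM in the SB + saline controls (SD, n = 5, 4 and 4). Its largest difference from SB + saline, with NRas + TAA, was -0.49 ± 0.24 (SE, adjusted p = 0.206). Erbb2 had 0 to 5 counts in a liver and passed in no comparison. A ratio of its counts in SB/AKT/NRas + saline to SB + saline livers, 10 to 3, was 2.53 with a 95% exact counting interval of 0.652 to 14.3.

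**Figure D3:**
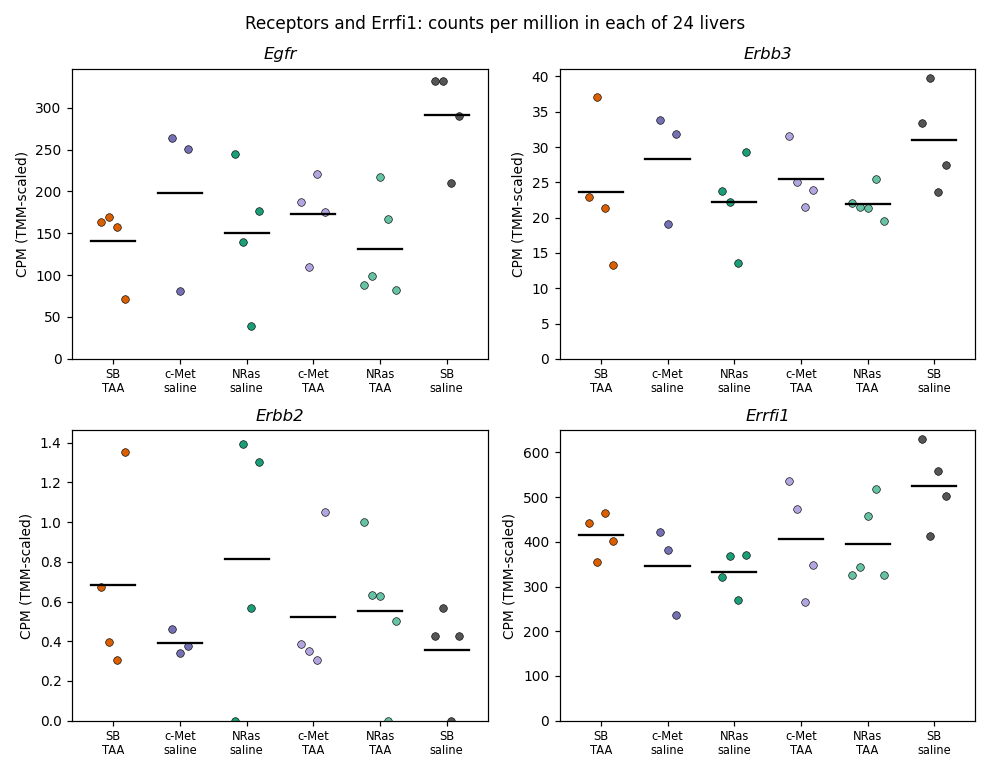
Levels of Egfr, Erbb3, Erbb2 and Errfi1 (vertical axes, TMM-scaled CPM from 0) in each of the 24 livers by group (horizontal axes); points are livers in replicate order from left to right and bars are group means. Egfr is highest on average in SB + saline (291 CPM) and lowest in SB/AKT/NRas + TAA (131 CPM), and the 4 SB/AKT/NRas + saline livers of Errfi1 lie below the 4 SB + saline livers.

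Errfi1, the feedback inhibitor, had 322, 369, 271 and 370 CPM in SB/AKT/NRas + saline livers, against 630, 414, 558 and 503 CPM in SB + saline livers. The groups did not overlap, and the log2 fold change of -0.66 ± 0.21 (SE) stood just outside the threshold (adjusted p = 0.0521). Of 9 other settings, 5 put it past the threshold: no low-count filter (adjusted p = 0.0222), DESeq2 (0.0244), robust estimation (0.0358), a filterByExpr filter (0.0379) and limma-voom (0.0481). The other 4 did not, and by library size alone the value was -0.22 (adjusted p = 0.475). It also passed without SB + saline replicate 2 (adjusted p = 0.0445), and on leaving out single livers the adjusted p reached 0.184. The estimates in the other groups were -0.34 (SB + TAA), -0.60 (SB/AKT/c-Met + saline), -0.37 (SB/AKT/c-Met + TAA) and -0.41 (SB/AKT/NRas + TAA), and none passed.

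Within the 9 livers given the NRas plasmid, the ligands were set beside the human NRAS transcript, with no test. SB/AKT/NRas + saline replicate 1 had the fewest NRAS counts of the 9 livers (28, 12.3 CPM) and the lowest Areg, Tgfa and Btc of them. Its Hbegf (2.64 CPM) was not the lowest, as SB/AKT/NRas + TAA replicate 4 (17.9 CPM of NRAS) had 1.38 CPM. SB/AKT/NRas + saline replicate 3 had the most NRAS counts (768, 218 CPM), with the highest Areg and Hbegf and the lowest Egfr of all 24 livers. Replicate 4 of that group (203 NRAS counts, 66.1 CPM) had the highest Tgfa and Btc of all 24. The libraries of the saline group differed as well. That of replicate 1 had 16403 detected genes, 13.8% of records assigned to genes and a TMM factor of 0.846. In replicate 3 these were 18411, 23.9% and 1.19, with replicates 2 and 4 between them. The part of these library differences in the ligand values was not tested. Markers of cholangiocytes (bile duct cells) were likewise lowest in replicate 1 and highest in replicate 3 of the saline group: the 10 genes summed to 154, 2590, 8817 and 925 CPM in SB/AKT/NRas + saline replicates 1 to 4, against 61.6 to 106 CPM in SB + saline livers. Most of that sum was Spp1 (osteopontin, 3011 CPM on average against 44.9), which other cells also make, while Krt19 averaged 7.99 against 1.57 CPM and Epcam 11.6 against 1.74 CPM. Cldn4 and Cftr were at 0 in SB + saline livers and were detected in both NRas groups, but also in SB + TAA livers. Of the 10 markers, 3 were at 0 in SB + saline livers, 2 in c-Met + saline livers and 1 in c-Met + TAA livers. The part of these cells in the ligand values was not tested. In bulk tissue, more cells of a type and more RNA per cell cannot be told apart.

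**Figure D4:**
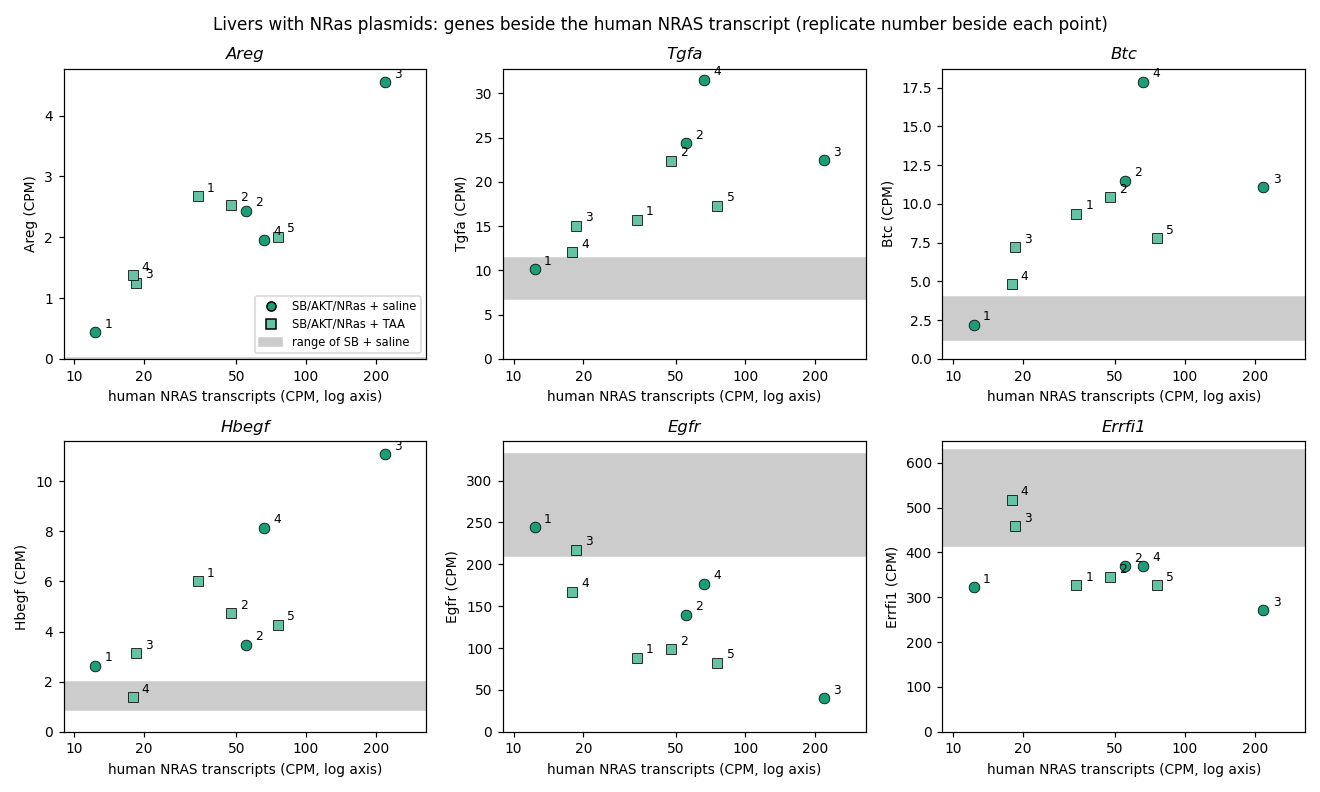
Level of 6 genes (vertical axes, CPM from 0) against the human NRAS transcript (horizontal axes, CPM, log axis) in the 4 SB/AKT/NRas + saline livers (circles) and 5 SB/AKT/NRas + TAA livers (squares), each with its replicate number; grey bands span the 4 SB + saline livers. Replicate 1 with saline, at 12.3 CPM of NRAS, lies in the band for Tgfa, Btc and Egfr, and replicate 3 with saline, at 218 CPM, has the highest Areg and Hbegf and the lowest Egfr.

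Marker sums of other cell types are set beside these values. Stellate cell markers (10 genes) summed to 73.9 to 798 CPM in NRas + saline livers, 151 to 473 CPM in NRas + TAA livers, 178 to 509 CPM in SB + TAA livers, 125 to 253 CPM in c-Met + saline livers, 143 to 326 CPM in c-Met + TAA livers and 75.03 to 106 CPM in the SB + saline controls, and none of the 10 was at 0 in any group. The 509 CPM was in the muscle-bearing SB + TAA replicate 4, and without it the SB + TAA livers had 178 to 270 CPM. Neutrophil markers (6 genes) summed to 14.9 to 97.3 CPM in NRas + saline livers, 13.2 to 42.4 CPM in NRas + TAA livers, 7.65 to 16.8 CPM in SB + TAA livers, 4.50 to 10.2 CPM in c-Met + saline livers, 8.07 to 20.4 CPM in c-Met + TAA livers and 3.42 to 13.3 CPM in the controls. Cholangiocyte markers (10 genes) summed to 231 to 4769 CPM in NRas + TAA livers, 137 to 248 CPM in SB + TAA livers, 50.9 to 385 CPM in c-Met + saline livers and 97.1 to 637 CPM in c-Met + TAA livers, beside the 61.6 to 106 CPM of the controls. With NRas + saline, 6 of 10 stellate, 3 of the 9 cholangiocyte markers tested and 2 of 6 neutrophil markers were called higher. With SB + TAA these counts were 4, 1 and 0, and with c-Met + TAA and with c-Met + saline they were 0, 0 and 0. Of all genes, 5.56% rose with NRas + saline, 5.7% with NRas + TAA and 3.48% with SB + TAA. With c-Met + TAA 2.68% rose, and with c-Met + saline 0.599%. Of 10 macrophage markers, 5 rose with NRas + saline, 6 with NRas + TAA, 5 with SB + TAA, 6 with c-Met + TAA and 0 with c-Met + saline. Their sums overlapped those of the controls in every group, at 136 to 247 CPM in NRas + saline livers, 147 to 272 CPM in NRas + TAA livers, 154 to 195 CPM in SB + TAA livers, 107 to 164 CPM in c-Met + saline livers, 139 to 215 CPM in c-Met + TAA livers and 77.5 to 187 CPM in the controls, and none of the 10 was at 0 in any group. Hepatocyte markers (9 genes) summed to 51652 to 85910 CPM in NRas + saline livers, 51231 to 75099 CPM in NRas + TAA livers, 64142 to 76050 CPM in c-Met + saline livers, 56618 to 82473 CPM in c-Met + TAA livers, 79587 to 109162 CPM in SB + TAA livers and 95838 to 114120 CPM in the controls. The ranges of all 4 dual plasmid groups lay below that of the controls, and that of SB + TAA overlapped it. The part of these shifts in the values of Egfr and the ligands was not tested.

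The effect of TAA was then compared between plasmid mixtures. TAA against saline gave log2 fold changes of 1.56 for Hbegf, 1.41 for Btc and 0.64 for Tgfa with SB alone, and of -0.72, -0.45 and -0.43 with AKT and NRas. For the difference of those effects (NRas mixture minus SB alone), edgeR gave -2.28 ± 0.80 for Hbegf (adjusted p = 0.181), -1.86 ± 0.62 for Btc (adjusted p = 0.158) and -1.07 ± 0.36 for Tgfa (adjusted p = 0.155; SE). Areg had an adjusted p of 0.11, and no size is given because the SB + saline livers were at 0. None of the 10 genes passed, against 0.758% of all genes, although 5 had an unadjusted p under 0.05, and none passed in DESeq2 or limma-voom. Without SB + TAA replicate 4, the muscle-bearing library, the value of Hbegf was -1.54 (adjusted p = 0.463), that of Btc -1.66 (0.309) and that of Tgfa -1.02 (0.283). Without SB/AKT/NRas + saline replicate 3 that of Hbegf was -1.86 (adjusted p = 0.4). Without SB/AKT/NRas + saline replicate 1, the liver with the least NRAS, 3 passed: Areg (adjusted p = 0.0246), Tgfa (-1.29, adjusted p = 0.0137) and Btc (-2.17, adjusted p = 0.0155). With AKT and c-Met, TAA gave 1.46 for Hbegf, 0.46 for Btc and 0.49 for Tgfa. No gene passed for the difference from SB alone, against 0.0103% of all genes, with 1 at an unadjusted p under 0.05 and 0 in DESeq2 or limma-voom.

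**Figure D5:**
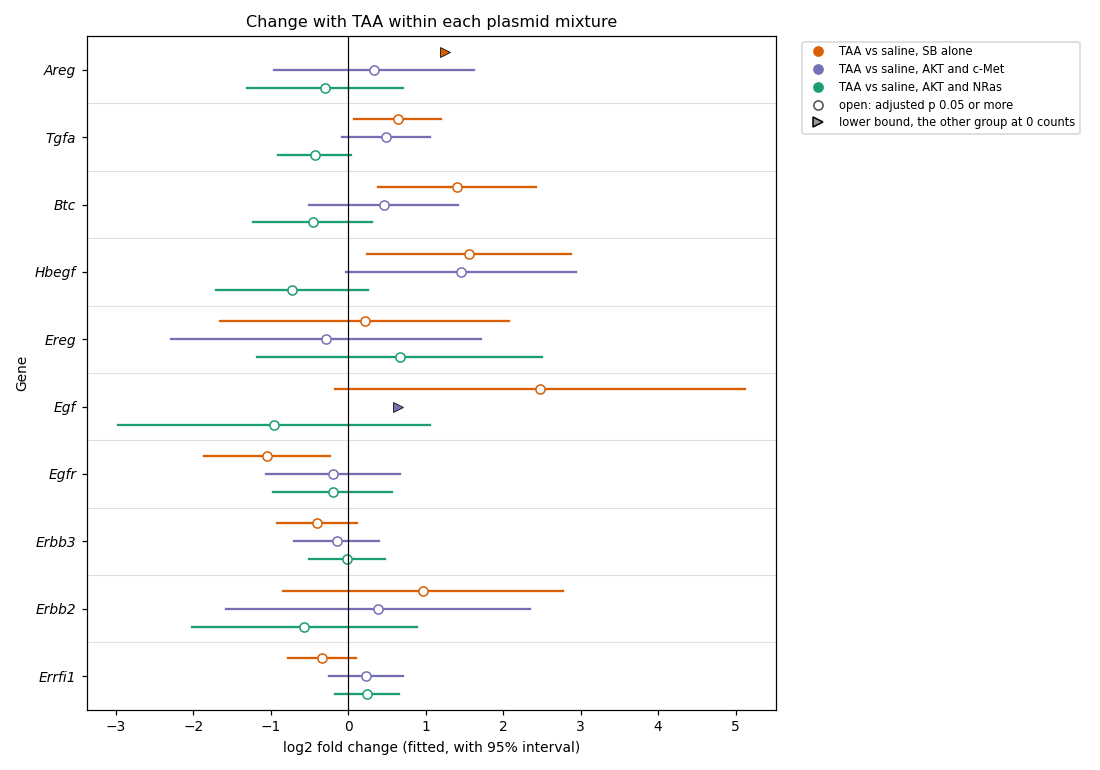
Log2 fold change with TAA against saline (horizontal axis) of the 10 genes (vertical axis) within SB alone, AKT and c-Met, and AKT and NRas livers; circles are fitted values with 95% intervals and triangles lower bounds against 3 counts. Hbegf, Btc and Tgfa are right of 0 with SB alone (1.56, 1.41 and 0.64) and left of it with AKT and NRas, and of the values drawn only Areg with SB alone passed the test.

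In the remaining comparisons none of the 10 genes passed in edgeR, DESeq2 or limma-voom. For SB/AKT/c-Met + TAA, 0.402% of all genes passed against SB + TAA and 0.237% against SB/AKT/c-Met + saline, and 0 and 1 of the 10 genes had an unadjusted p under 0.05. Groups did not overlap for 1 of the 10 in each (Areg and Tgfa), against 4.48% and 9.07% of all genes. For SB/AKT/NRas + TAA, 1.47% passed against SB + TAA and 0.175% against SB/AKT/NRas + saline, with 1 and 0 of the 10. Areg gave that 1, at a log2 fold change of 1.27 against SB + TAA (95% interval 0.09 to 2.44, adjusted p = 0.395), and its range of 1.25 to 2.67 CPM in SB/AKT/NRas + TAA livers lay above the 0.395 to 1.08 CPM of SB + TAA livers, the only 1 of the 10 without overlap there, against 4.6% of all genes, while none was without overlap against SB/AKT/NRas + saline (2.78% of all genes). Areg in SB/AKT/c-Met + TAA livers, at 1.15 to 2.15 CPM, likewise lay above all SB + TAA livers (log2 fold change 1.14, 95% interval -0.11 to 2.39, adjusted p = 0.6).

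The NRas and c-Met plasmids were also set against each other. With saline, Hbegf lay higher in all 4 SB/AKT/NRas livers, at 2.64 to 11.1 CPM, than in the 3 SB/AKT/c-Met livers, at 0.375 to 2.05 CPM (2.30 ± 0.69 SE), the only 1 of the 10 without overlap (5.35% of all genes), and Tgfa was higher in 3 of the 4 (0.79 ± 0.28 SE). Neither passed (adjusted p = 0.231 and 0.346), nor did any of the 10, against 0.134% of all genes, while 3 had an unadjusted p under 0.05. Without SB/AKT/NRas + saline replicate 1, Hbegf (2.53, adjusted p = 0.0494) and Tgfa (1.01, adjusted p = 0.028) passed. With TAA the 2 mixtures gave 0 calls and 0 unadjusted p under 0.05, against 0.0103% of all genes called, and all 10 genes overlapped (2% of all genes did not). The 95% intervals there still spanned -0.61 to 0.34 for Tgfa, -0.93 to 1.18 for Areg and -0.81 to 0.78 for Btc on the log2 scale.

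Of 71 other genes of the pathway, from further ligands to the outputs of ERK, 69 passed the filter. Against SB + saline, 10 rose with NRas + saline, 4 with SB + TAA, 4 with NRas + TAA, 2 with c-Met + TAA and 0 with c-Met + saline, where 5.56%, 3.48%, 5.7%, 2.68% and 0.599% of all genes rose. The counts with NRas + TAA and with c-Met + TAA were close to those shares. At an unadjusted p under 0.05 in edgeR, 22, 10, 13, 7 and 6 were higher and 2, 6, 4, 1 and 2 lower, and 0 of those lower passed. Their median log2 fold changes were 0.24, 0.04, 0.20, 0.15 and 0.07 (0.21, 0.04, 0.18, 0.15 and 0.08 with genes at 0 put at their bound), against 0.07, 0.09, 0.07, 0.04 and 0.02 over all genes. On leaving out single livers, the count with NRas + saline was 16 without its replicate 1, 4 without its replicate 3, 6 without its replicate 4 and 6 without SB + saline replicate 2. That with SB + TAA was 1 without its muscle-bearing replicate 4 and 1 to 3 without any 1 SB + saline liver (2 without replicate 2 and 1 without replicate 3 or 4). That with c-Met + TAA was 1 without its replicate 2 or 4 or SB + saline replicate 3.

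Nrg1 (neuregulin 1, the ligand of ERBB3 and ERBB4) was the ligand outside the set that rose in 4 of the 5 groups. It averaged 14.95 ± 9.36 CPM in NRas + saline livers, 6.80 ± 3.94 CPM in NRas + TAA livers, 5.99 ± 1.70 CPM in c-Met + TAA livers, 5.92 ± 2.25 CPM in SB + TAA livers and 0.841 ± 0.603 CPM in the controls (SD, n = 4, 5, 4, 4 and 4). The log2 fold changes were 4.20, 3.05, 2.85 and 2.87 (adjusted p 0.000498 to 0.0243). In c-Met + saline livers Nrg1 was not called, although it averaged 7.10 ± 1.95 CPM (SD, n = 3). Each of those livers (4.87 to 8.54 CPM) lay above all controls (0.428 to 1.71 CPM). Both NRas calls held without any 1 liver, although the NRas + saline livers ran from 1.32 to 21.3 CPM and so overlapped the controls. That with SB + TAA was lost without SB + TAA replicate 4 or SB + saline replicate 1, 3 or 4 (adjusted p up to 0.079), and that with c-Met + TAA without SB/AKT/c-Met + TAA replicate 2 or 4 or SB + saline replicate 1, 3 or 4 (up to 0.089). Its effect of TAA differed between the NRas mixture and SB alone (-4.02 ± 0.85 SE, adjusted p = 0.0215), but not without SB + TAA replicate 4, SB/AKT/NRas + saline replicate 3 or SB + saline replicate 1, 3 or 4 (up to 0.0658). Nrg4, a ligand of ERBB4, rose in SB + TAA livers (19.6 ± 8.66 CPM against 7.41 ± 5.09 CPM in the controls, SD, n = 4 each; adjusted p = 0.0345), a call lost without SB + TAA replicate 3 or 4 or SB + saline replicate 2, 3 or 4 (up to 0.165).

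Of 10 genes of ligand release, 3 rose with NRas + saline, against 5.56% of all genes: Adam10 (a sheddase, 0.77 ± 0.22 SE, adjusted p = 0.0301), Rhbdf2 (iRhom2, a carrier of the sheddase ADAM17, 1.33 ± 0.42 SE, adjusted p = 0.0457) and Frmd8 (which stabilises iRhom, 1.08 ± 0.31 SE, adjusted p = 0.0266). They averaged 76.7, 8.53 and 18.2 CPM with NRas + saline, against 45.1, 3.36 and 8.65 CPM in the controls. These calls were near the threshold: Adam10 held without 3 of the 8 livers, Frmd8 without 2 and Rhbdf2 without 1 (adjusted p up to 0.17). All 3 were lost without SB/AKT/NRas + saline replicate 2 or 3 or SB + saline replicate 2 or 4, Frmd8 and Rhbdf2 also without SB/AKT/NRas + saline replicate 4 or SB + saline replicate 3, and Adam10 and Rhbdf2 without SB + saline replicate 1.

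Against SB + saline, only Mapk3 (ERK1) of 23 adaptors and kinases of the cascade was called higher in the NRas groups. That count is near the shares of all genes that rose, 5.56% with saline and 5.7% with TAA. Mapk3 had a log2 fold change of 1.00 ± 0.29 with saline (adjusted p = 0.0323) and 1.15 ± 0.28 with TAA (adjusted p = 0.00828; SE). The call with TAA held without any 1 liver, and that with saline was lost without SB/AKT/NRas + saline replicate 2, 3 or 4 or SB + saline replicate 1, 2 or 3 (up to 0.132). Mapk3 was also higher in SB/AKT/NRas + TAA than in SB + TAA livers, at 17.2 ± 5.07 against 7.97 ± 3.13 CPM (SD, n = 5 and 4, adjusted p = 0.0259), which was lost without SB + TAA replicate 2, 3 or 4 or SB/AKT/NRas + TAA replicate 1, 2 or 5 (up to 0.122). Of all genes, 1.47% passed in that comparison. Src, a kinase that acts with EGFR, was higher in SB/AKT/NRas + saline than in SB/AKT/c-Met + saline livers (3.15 ± 0.66 SE, adjusted p = 0.0438). Src averaged 4.80 ± 3.44 CPM in the NRas livers and 0.548 ± 0.328 CPM in the c-Met livers (SD, n = 4 and 3), and its call was lost without any 1 c-Met liver or SB/AKT/NRas + saline replicate 3 or 4 (up to 0.335). These c-Met livers held 1 to 2 counts of Src each, below all SB + saline livers (1.20 to 3.41 CPM). Src averaged 3.92 ± 0.85 CPM in SB + TAA livers and 2.83 ± 0.98 CPM in SB/AKT/c-Met + TAA livers (SD, n = 4 each). Of 16 genes of receptor downregulation, 0 passed in edgeR in the comparisons made, and with NRas + saline 3 were higher and 1 lower at an unadjusted p under 0.05.

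Of 16 genes known as outputs of ERK, 5 rose with NRas + saline, against 5.56% of all genes, and the 4 with the smallest p are named. Ccnd1 (cyclin D1) averaged 133 ± 79.8 CPM in NRas + saline livers, 129 ± 37.2 CPM in NRas + TAA livers, 128 ± 58.7 CPM in c-Met + TAA livers, 204 ± 65.0 CPM in SB + TAA livers and 38.2 ± 13.3 CPM in the controls (SD, n = 4, 5, 4, 4 and 4), and rose in each (adjusted p 0.00038 to 0.00672), also without any 1 liver. The difference of its TAA effects, NRas mixture minus SB alone, was -2.48 ± 0.50 (SE, adjusted p = 0.0162) and was lost without SB/AKT/NRas + saline replicate 3 or SB + saline replicate 1 (up to 0.0534). Ier3 (4.20 ± 0.87 SE, adjusted p = 0.00341), Egr1 (2.40 ± 0.60 SE, adjusted p = 0.0134) and Dusp5 (a phosphatase of ERK, 3.58 ± 2.59 against 0.107 ± 0.214 CPM, SD, n = 4 each, adjusted p = 0.00781) rose with NRas + saline. Ier3 and Dusp5 held without any 1 liver, and Egr1 was lost without SB/AKT/NRas + saline replicate 3 (adjusted p = 0.0642). The rises were not seen in every NRas + saline liver. Ier3 ran from 0 to 34.7 CPM there, against 0 to 1.20 CPM in the controls, and Ccnd1 from 37.8 to 233 CPM, against 27.4 to 56.3 CPM. Dusp5 ran from 0.440 to 6.53 CPM, against 0 to 0.428 CPM, and Egr1 from 4.84 to 29.3 CPM, against 1.14 to 4.71 CPM. Dusp6, another ERK phosphatase, rose with NRas + TAA (0.96 ± 0.29 SE, adjusted p = 0.0303), a call lost without SB/AKT/NRas + TAA replicate 1 or 3 or SB + saline replicate 1, 2 or 4 (up to 0.114). Its mean was no lower without TAA: 60.4 ± 16.1 CPM in NRas + saline livers and 56.4 ± 10.0 CPM in NRas + TAA livers. Dusp6 averaged 48.0 ± 11.0 CPM in c-Met + TAA livers and 28.9 ± 9.53 CPM in the controls (SD). Fosl1 averaged 3.80 ± 3.64 CPM in SB + TAA livers and was at 0 in all SB + saline livers (SD, n = 4, adjusted p = 0.0217), and the call held only without SB + TAA replicate 2 or 3 (otherwise up to 0.0638).

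The genes whose levels were most like Areg over the 24 livers, among 9252 with a mean of at least 5 CPM, were Tmem43, Mvp and Ly6d (Pearson r of log2 CPM 0.92 each). For Tgfa they were Gnai2 (0.92), Loxl2 (0.88) and Fat1 (0.87). The livers share these 6 groups, so the values describe a common pattern over them.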

How the data were processed

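RNA from bulk liver of 24 mice was sequenced, 1 library per mouse, after poly(A) priming with molecular tags. The authors split reads by sample (Sabre) and used RNAsik, with Picard and Samtools, to map them by STAR to GRCm38 plus human NRAS and MET. Duplicates were collapsed by tag, and genes were counted by featureCounts 1.6.4 (mapping quality of at least 10, forward strand). The deposited values are whole-number counts that were not scaled.

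The analysis used edgeR 4.0.16 under R 4.3.3, with a minimum of 0.5 CPM in 2 libraries, TMM scaling, 1 quasi-likelihood model of 6 group means over all libraries, contrasts adjusted by Benjamini-Hochberg over 19381 genes. SE is the absolute log2 fold change over the square root of F. The authors used limma-voom, an alternative here (limma 3.58.1) beside DESeq2 1.42.0, other scalings and filters, robust estimation, a fold threshold, only the groups compared, a replicate block and the omission of each liver. The script was tested on simulated data. Figures used Python 3.11.15 and matplotlib 3.10.9.

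Named genes follow a rule: all 10 members, up to 4 genes per other list and comparison with the smallest p among those called, and 3 like genes per member passing the F test. Members and lists were chosen with earlier results of these data known. Promoter sequences come from RefSeq. Groups follow the labels.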

Additional observations from a re-analysis of the deposited data

Results flagged for a closer look

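Dixon's test was run on 49 gene and group combinations of 4 or 5 livers, and chance alone marks about 1 in 20 of them. It marked 3. Egfr in SB + TAA replicate 4 had 71.4 CPM, against 158 to 170 CPM in the other 3 livers of its group, and this is the library with skeletal muscle transcripts. Erbb2 in SB/AKT/c-Met + TAA replicate 4 had 1.05 CPM, from 3 counts against 1 in each of the other 3. Egf in SB + saline replicate 1 had 0.428 CPM, from 1 count against 0 in the other 3.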

How the results depend on the processing

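No call of a member reversed under the alternatives run. The counts of called members (of 10) moved as follows; filterByExpr left Areg untested. Against SB + saline, the 1 in SB + TAA livers became 4 by library size alone, 2 with no filter and 0 with filterByExpr, DESeq2, limma-voom or the replicate block. The 0 in SB/AKT/c-Met + saline became 1 by library size alone, with no filter or in DESeq2. The 2 in SB/AKT/c-Met + TAA became 4 with no filter or with only the groups compared, and 1 with filterByExpr or limma-voom. The 4 in SB/AKT/NRas + saline became 6 with no filter (Egfr and Errfi1 added), 5 in DESeq2 or with robust estimation (Errfi1 added) and 3 in limma-voom, which added Errfi1 and lost Hbegf (adjusted p = 0.0922) and Btc (adjusted p = 0.0713); with filterByExpr it stayed 4, with Errfi1 called and Areg untested. The 4 in SB/AKT/NRas + TAA became 5 with only the groups compared (Erbb3 added), 3 by library size alone or with robust estimation (Egfr lost), 3 with filterByExpr or a fold threshold of 1 on the log2 scale, 2 in limma-voom and 1 with the replicate block. The 2 by the F test became 4 by library size alone or in DESeq2, 5 with no filter, and 1 with filterByExpr or limma-voom. The 0 for NRas against c-Met with saline became 1 with no filter. The 0 for the difference of TAA effects with NRas became 1 by library size alone and 2 with no filter. The causes were not tested. On leaving out each liver, the counts ran from 0 to 2 (SB + TAA), 0 to 1 (SB/AKT/c-Met + saline), 2 to 5 (SB/AKT/NRas + saline), 1 to 2 (SB/AKT/c-Met + TAA) and 1 to 4 (SB/AKT/NRas + TAA) against SB + saline, 0 to 2 for NRas against c-Met with saline, 0 to 3 for the difference with NRas and 1 to 4 for the F test. The labels state no pairing of mice by replicate number. Deviations from group means correlated at -0.00717 on average for the same number (55 pairs, -0.294 to 0.144) and 0.00211 for different numbers (184 pairs). Such averages cannot show that the numbers share no handling. With the replicate block Areg in SB + TAA (adjusted p = 0.0756) and Egfr, Tgfa and Btc in SB/AKT/NRas + TAA (0.137, 0.0738 and 0.0665) lost their calls, and Areg, Tgfa, Btc and Hbegf in SB/AKT/NRas + saline kept theirs. Depth limits Areg, Ereg, Egf and Erbb2, which had at most 16 counts in a liver, so that smaller differences in them could not be seen at this depth.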
